A study of Mus musculus with 17 samples.

Results

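Histone deacetylases take acetyl groups off lysines of histones and other proteins. The 10 genes described here, Hdac1, Hdac2, Hdac3, Hdac4, Hdac5, Hdac7, Hdac8, Hdac9, Hdac10 and Hdac11, were taken by symbol from 3 tables of read counts, and all 10 were found among the 25239 genes listed. Hdac6 is not among the 10, so shares and ranks given below are those of the 10 genes. The tables hold 17 libraries of bulk RNA from the brains of DAT-cre mice, in which dopamine neurons make Cre recombinase. Mice were classed as perseverers (addicted) or renouncers (not addicted) in oDASS, a protocol in which a mouse stimulates its own dopamine neurons with light. The 6 groups were dissections of the orbitofrontal cortex (OFC) after oDASS with 3 perseverer and 3 renouncer libraries, dissections of the medial prefrontal cortex (mPFC) after oDASS with 3 and 3, and imprints of OFC tissue before oDASS with 2 perseverer and 3 renouncer libraries. All 17 libraries share the DAT-cre line, no library is from a mouse outside oDASS, and neither age nor sex is given in the labels. The labels do not say whether libraries of a group, or OFC and mPFC libraries of the same number, come from separate mice, so p-values measure the spread between these samples, which may be technical.

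The family falls into classes that work in different ways. The class I enzymes Hdac1, Hdac2, Hdac3 and Hdac8 are mostly nuclear; Hdac1 and Hdac2 are catalytic subunits of the Sin3, NuRD and CoREST corepressor complexes, and Hdac3 of the NCoR/SMRT complex. The class IIa proteins Hdac4, Hdac5, Hdac7 and Hdac9 have little deacetylase activity of their own, bind Mef2 transcription factors, and leave the nucleus when calcium-dependent and other kinases phosphorylate them and 14-3-3 proteins bind. Hdac10 is a class IIb enzyme that acts on polyamines, and Hdac11, the class IV member, removes long fatty acyl groups. In neurons this family is known for setting activity-dependent transcription, and Hdac5 has been studied in the striatum in cocaine reward.

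Counts per library were 12392731 to 20945108 in the dissections, where the 10 genes together received 8901 to 19909 reads. The 5 imprints had 8960549 to 10662666 counts, of which haemoglobin genes took 85.4% to 90.7% in 4 libraries and 29.7% in renouncer imprint replicate 1, which stands apart with 4298 reads on the 10 genes against 177 to 419 in the others. Excitatory neuron markers, among them Slc17a7 and Camk2a, were present in every library, summed to 2827 to 6216 CPM in the dissections and 1287 to 2865 CPM in the imprints. Levels are CPM, counts scaled to library size, put on 1 scale for all 17 libraries by trimmed mean of M-values (TMM) factors, and these are divided by gene length in kilobases (RPKM) where genes are compared with each other. The TMM factors were 0.965 to 1.03 in the dissections and 0.0324 to 0.675 in the imprints. An imprint CPM is therefore relative to the library total times this factor, and not to all counts of the library. A limit given for a count of 0 covers counting error only.

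In the 12 dissections Hdac5 was the most abundant member, with 93.8 ± 27.6 RPKM (SD, n = 12). It made up 38.8% of the summed RPKM of the 10 genes, with a range of 29.6% to 52.6% over libraries. Hdac2 (46.2 ± 8.35 RPKM), Hdac3 (41.5 ± 5.65 RPKM) and Hdac11 (34.5 ± 6.08 RPKM) followed, and each of the other 6 genes was below 10 RPKM on average. Hdac4 stood at 9.06 ± 2.43 RPKM, Hdac8 at 3.95 ± 1.06 RPKM, Hdac9 at 3.12 ± 0.748 RPKM, Hdac1 at 2.95 ± 0.357 RPKM, Hdac10 at 2.72 ± 0.729 RPKM and Hdac7 at 0.998 ± 0.318 RPKM. The ranges of Hdac5 and Hdac2, of Hdac11 and Hdac4, and of Hdac4 and Hdac8 did not overlap over the 12 libraries. Hdac10 was above Hdac7 in 12 of 12 libraries with overlapping ranges. Neighbours in between could not be ordered beyond their spread: Hdac2 was above Hdac3 in 9 of 12 libraries, Hdac3 above Hdac11 in 9, Hdac8 above Hdac9 in 9, Hdac9 above Hdac1 in 6 and Hdac1 above Hdac10 in 5. So the 3 highest genes after Hdac5 belong to classes I and IV. The 4 class IIa genes span the whole range of the 10 genes, with Hdac5 at its top and Hdac7 at its foot.

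**Figure D1:**
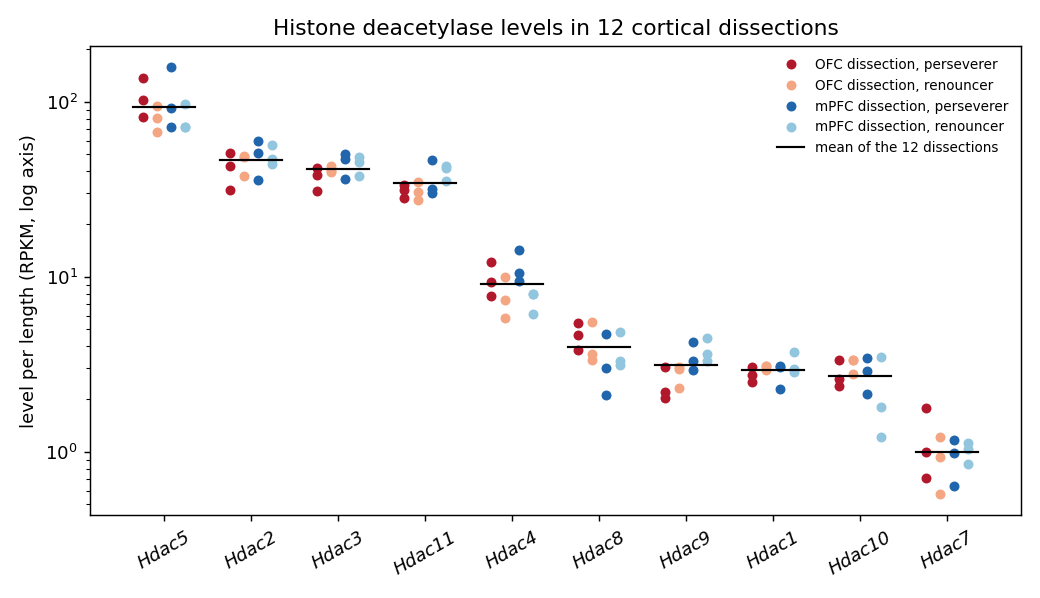
Level per gene length (RPKM, log axis) of each histone deacetylase in the 12 dissections, ordered by mean. Points are libraries, coloured by region and phenotype, and bars are means over 12 libraries; Hdac5 lies highest at 93.8 RPKM and Hdac7 lowest at 0.998 RPKM.

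Some of these genes share sequence or exon bases with other loci. Of the 50-base windows of the longest Hdac1 transcript, 58.7% also occur in transcripts of other annotated genes (Gm10093, Gm4864 and AC125456.1), so the level of Hdac1 is uncertain. The library kit does not mark strand, and 22.4% of the exon bases of Hdac4 lie in exons of the opposite-strand gene Gm26720. For Hdac11 17.9% lie in exons of the opposite-strand genes Gm14573 and Gm44002, with which 22.8% of the windows of its longest transcript are shared. Reads from the shared stretches of these pairs cannot be told apart, and how such reads were counted is not given. For the other 7 genes no more than 1.26% of exon bases overlapped another gene and 0% of windows were shared.

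Across libraries the most variable members were Hdac7 and Hdac5, with coefficients of variation of 31.8% and 29.5% in the 12 dissections, followed by Hdac4, Hdac10 and Hdac8 with 26.7% to 26.9%, and the least variable was Hdac1 with 12.1%. Hdac4 and Hdac5 went up and down together. Over the 12 dissections, with the mean of each region removed, the log2 levels of Hdac4 and Hdac5 had a Pearson correlation of 0.86 (Spearman 0.73), with 0.97 over the 6 OFC and 0.79 over the 6 mPFC libraries. Hdac5 and Hdac7 had 0.68 (Spearman 0.56).

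Hdac2 and Hdac9 also went together, and against Hdac5. Hdac2 and Hdac9 had a correlation of 0.90 (Spearman 0.84; 0.90 in the OFC and 0.90 in the mPFC) and Hdac2 and Hdac3 one of 0.81 (Spearman 0.65). Hdac5 and Hdac2 had -0.84 (Spearman -0.72) and Hdac5 and Hdac9 -0.81 (Spearman -0.88). With the mean of each of the 4 region and phenotype groups removed, the values were 0.85 for Hdac4 and Hdac5, 0.91 for Hdac2 and Hdac9 and -0.89 for Hdac2 and Hdac5. These are descriptions over 12 libraries with no test, chosen as the largest of 45 pairs, and the OFC and mPFC libraries may share mice. The 2 libraries at the end of the pattern were perseverer replicate 3 of each region. Without them the correlation was 0.67 for Hdac4 and Hdac5, 0.50 for Hdac5 and Hdac7 and 0.86 for Hdac2 and Hdac9. It was 0.48 for Hdac2 and Hdac3, -0.53 for Hdac2 and Hdac5 and -0.71 for Hdac5 and Hdac9. Other pairs rest on those 2 libraries: without them Hdac2 and Hdac4 had -0.08, against -0.62 with them, Hdac3 and Hdac5 had 0.25, against -0.59, and Hdac3 and Hdac4 had 0.44, against -0.39.

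**Figure D2:**
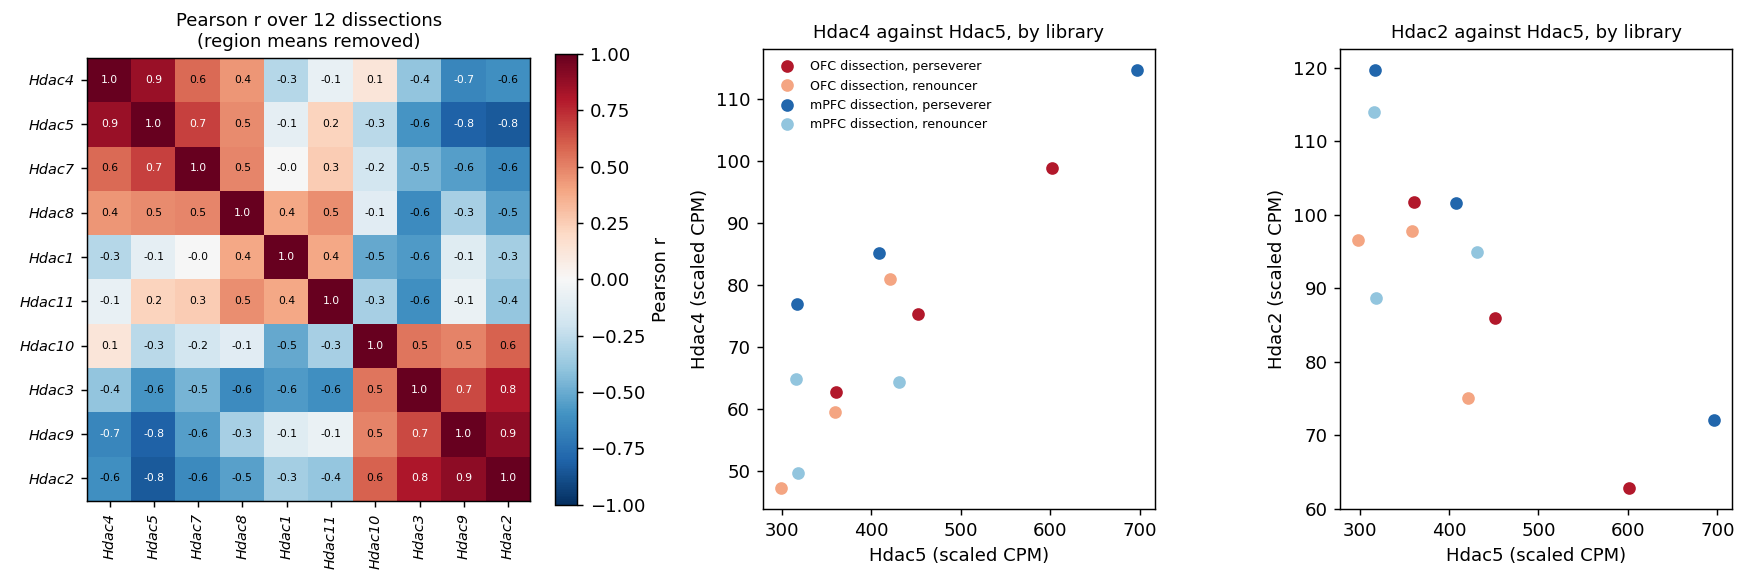
Left, Pearson correlation of log2 levels between members over 12 dissections after removing region means. Middle and right, Hdac4 and Hdac2 against Hdac5 (scaled CPM) with 1 point per library; perseverer replicate 3 of the mPFC (697 CPM of Hdac5) and of the OFC (601 CPM) have the most Hdac4 and the least Hdac2.

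Base composition differs between the members. The longest transcripts of Hdac5 and Hdac4 are 59.8% and 52.5% G and C, and those of Hdac2, Hdac9 and Hdac3 are 41.9%, 45.0% and 47.1%. Each library also had a trend of expression with transcript GC content over 8435 genes, measured as Spearman's correlation between GC content and the gene's distance from the region mean. It was positive in all 6 perseverer dissections (0.0663 to 0.162) and negative in all 6 renouncer dissections (-0.327 to -0.0140). Over the 12 dissections Hdac4 had a correlation of 0.82 with this trend (Spearman 0.81), Hdac5 one of 0.61, Hdac7 one of 0.42, Hdac9 one of -0.41, Hdac2 one of -0.24 and Hdac3 one of -0.10. These values did not rank as the members' own GC content did: Hdac11, with 57.4%, had -0.33, and Hdac1 had -0.58. They include the phenotype difference in the trend. With the mean of each of the 4 groups removed, the correlation was 0.66 for Hdac4, 0.64 for Hdac7, 0.40 for Hdac5 and 0.18 for Hdac3. It was then -0.19 for Hdac9, -0.18 for Hdac2, -0.28 for Hdac11 and -0.37 for Hdac1. After a linear GC trend was removed from each library, the correlation was 0.82 for Hdac4 and Hdac5, 0.85 for Hdac2 and Hdac9 and -0.83 for Hdac2 and Hdac5. The part of base composition in these correlations was not tested.

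The starts of these genes also differ in sequence. Promoter entries from RefSeq's table for GRCm38.p6 were used for 7 of the 10 genes. For Hdac1, Hdac3 and Hdac10 no entry was used, which does not show that RefSeq lacks one. The 250 bases before the start are shown for Hdac5 and Hdac4, the pair that moved together. They are also shown for Hdac2 and Hdac9, which moved against Hdac5. Hdac5 is at chr11:102230173-102230422 (minus strand), Hdac4 at chr1:92180342-92180591 (minus), Hdac2 at chr10:36974294-36974543 (plus), and the 2 listed starts of Hdac9 at chr12:34917096-34917345 and chr12:34528890-34529139 (both minus). The Hdac4 window belongs to an inner start, since it lies inside the annotated gene, which begins at base 92195699 on the minus strand. Capitals mark matches on either strand to the MEF2 consensus, to the core of the cAMP response element (TGACG or CGTCA) and to the CCAAT box (CCAAT or ATTGG).
Hdac5: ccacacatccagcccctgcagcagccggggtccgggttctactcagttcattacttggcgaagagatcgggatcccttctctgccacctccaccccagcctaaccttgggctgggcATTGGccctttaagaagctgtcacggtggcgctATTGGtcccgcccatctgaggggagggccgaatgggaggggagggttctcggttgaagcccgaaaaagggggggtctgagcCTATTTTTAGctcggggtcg
Hdac4: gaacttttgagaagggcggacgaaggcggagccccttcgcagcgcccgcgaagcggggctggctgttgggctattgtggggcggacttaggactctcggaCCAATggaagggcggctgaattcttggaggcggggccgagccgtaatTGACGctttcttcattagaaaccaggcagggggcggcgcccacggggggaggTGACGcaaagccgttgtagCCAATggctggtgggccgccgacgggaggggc
Hdac2: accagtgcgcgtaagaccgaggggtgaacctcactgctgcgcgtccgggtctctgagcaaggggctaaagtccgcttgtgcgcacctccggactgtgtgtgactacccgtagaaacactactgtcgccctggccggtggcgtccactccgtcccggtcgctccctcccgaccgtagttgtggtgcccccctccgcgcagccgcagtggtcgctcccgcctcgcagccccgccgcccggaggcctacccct
Hdac9, distal start: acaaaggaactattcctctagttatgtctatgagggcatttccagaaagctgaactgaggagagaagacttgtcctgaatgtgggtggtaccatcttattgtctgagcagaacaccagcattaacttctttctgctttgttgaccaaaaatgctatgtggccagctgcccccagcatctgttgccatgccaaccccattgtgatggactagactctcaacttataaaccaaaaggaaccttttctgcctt
Hdac9, inner start: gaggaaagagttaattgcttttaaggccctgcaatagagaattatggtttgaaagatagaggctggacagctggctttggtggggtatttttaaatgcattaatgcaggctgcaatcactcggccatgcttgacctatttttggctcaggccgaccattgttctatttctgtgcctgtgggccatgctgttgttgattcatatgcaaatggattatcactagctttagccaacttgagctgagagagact

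The 10-base match near the end of the Hdac5 sequence, which stops 10 bases before the start, is the MEF2 consensus, the element that binds the partners of class IIa proteins. Such a match was found in 0.508% of 32851 promoters of the same length. The Hdac5 window also holds 2 CCAAT boxes, and the Hdac4 window has 2 CCAAT boxes and 2 cores of the response element, which 33.9% and 17.8% of promoters hold at least once. In the Hdac2 window and both Hdac9 windows 0 matches to the 3 motifs were found. The listed windows of Hdac7, which went with Hdac5 less closely than Hdac4 did, also had 0 matches. Of the other genes with entries used here, Hdac8 had 2 CCAAT boxes, and Hdac11 had 1 CCAAT box and 1 core of the response element. GC content was 60.8% for Hdac5, 65.2% for Hdac4 and 68.8% for Hdac2, and 44.4% and 43.6% for the Hdac9 windows, against a median of 52.4% over all promoters. A match describes the letters and not a binding site.

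Perseverers and renouncers were compared first in the OFC dissections. Hdac5, Hdac7 and Hdac4 had the highest log2 fold changes (0.41, 0.36 and 0.35) and the other 7 genes lay between -0.18 and 0.17, but 0 of 10 members passed edgeR's quasi-likelihood test at an adjusted p of 0.05. Of 14621 genes 0% passed (377 at an unadjusted p under 0.05, and 0 passed with DESeq2, with 420). Hdac5 had 452, 360.4 and 601 CPM in perseverers, against 359, 421 and 299 CPM in renouncers. The groups overlap, with the highest value in perseverer replicate 3 and the lowest in renouncer replicate 3. The log2 fold change was 0.41 ± 0.22 (SE; adjusted p = 0.951), and 0.17 without perseverer replicate 3. Hdac4 had 75.3, 62.8 and 98.9 CPM in perseverers, against 59.6, 81.0 and 47.2 CPM in renouncers, also with overlap and the same extreme libraries. Its log2 fold change was 0.35 ± 0.24 (adjusted p = 0.951), and 0.13 without perseverer replicate 3. The groups overlapped for each of the 10 members, where they did not overlap for 9.12% of all genes. The median log2 fold change was -0.04 over the members and 0.00 over all genes.

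**Figure D3:**
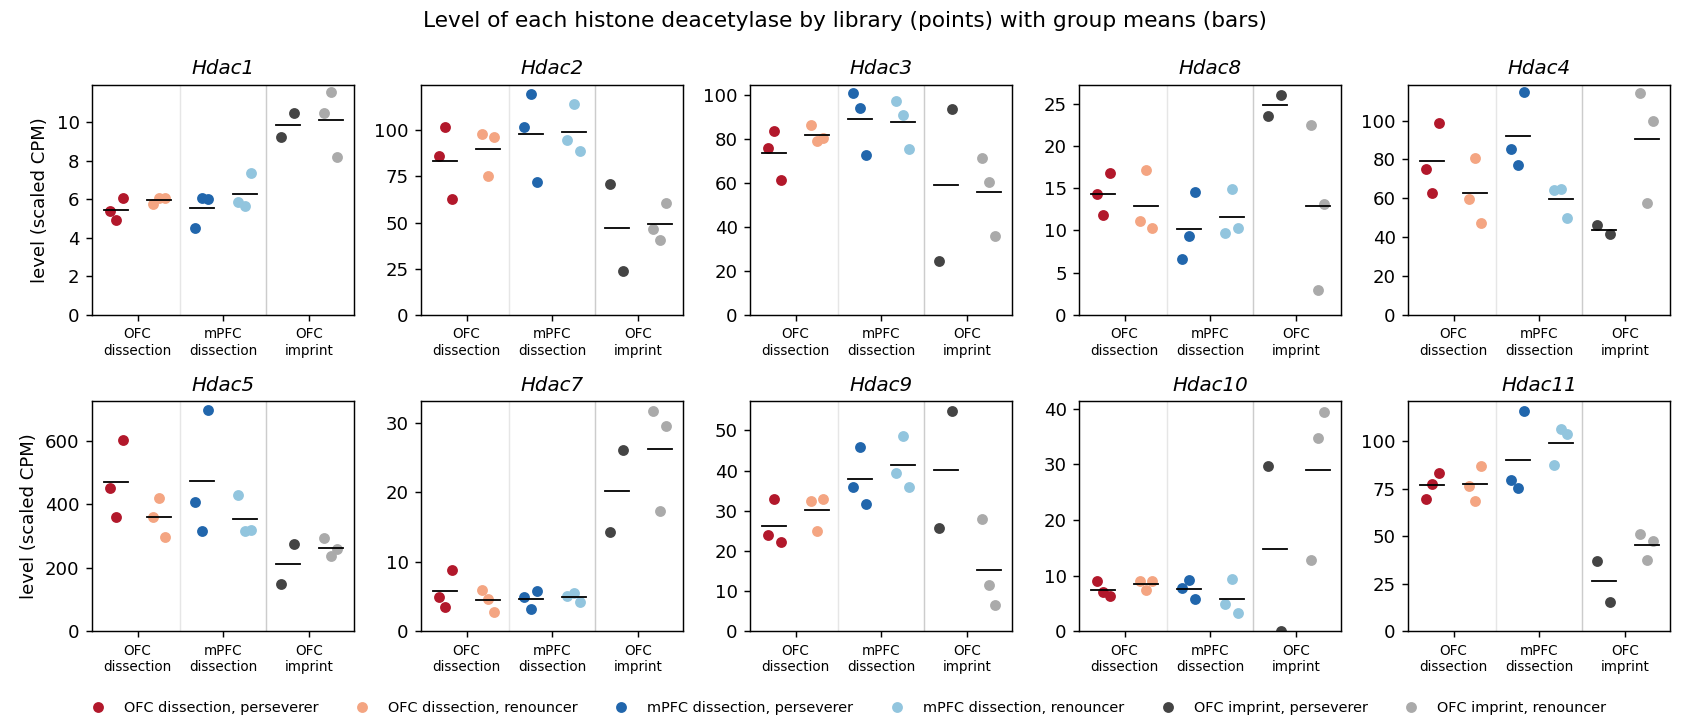
Level of each histone deacetylase (scaled CPM, axes from 0) in every library, with perseverers left of renouncers in OFC dissections, mPFC dissections and OFC imprints. Points are libraries and bars group means; in the mPFC the 3 perseverer points of Hdac4 (76.9 to 114.7 CPM) lie above the 3 renouncer points (49.7 to 64.8 CPM).

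In the mPFC dissections Hdac4, which represses Mef2 targets when it is in the nucleus, was the member with separate groups. Its levels were 85.3, 76.9 and 114.7 CPM in perseverers, against 64.3, 64.8 and 49.7 CPM in renouncers, so that every perseverer library was above every renouncer library. The log2 fold change was 0.65 ± 0.21 with an unadjusted p of 0.0107 and an adjusted p of 0.943 in edgeR's test, and it was 0.43 to 0.78 when any 1 library was left out. It ranked 90th by p among 14375 genes, of which 0% passed (639 at an unadjusted p under 0.05; 0 and 767 with DESeq2). Hdac4 was 1 of 10 members whose groups did not overlap, against 11.2% of all genes, which is near the same share. With each library's GC trend removed the fold change was 0.62 (unadjusted p 0.0125). Excitatory neuron markers moved the same way: the 4 genes summed to 3808 to 6216 CPM in perseverers and 2827 to 3596 CPM in renouncers of the mPFC, and to 4253 to 4714 CPM and 3072 to 3907 CPM in the OFC, with 0 of 4 called in either region and none at 0. Inhibitory neuron markers (5 genes, none at 0) summed to 538 to 695 CPM in mPFC perseverers and 709 to 1069 CPM in mPFC renouncers. The part of these cell types in the difference of Hdac4 was not tested.

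Hdac5 in the mPFC was at 408, 317 and 697 CPM in perseverers, against 431, 316 and 318 CPM in renouncers. Perseverer replicate 3 stands above the other 5 libraries, which overlap, and without it the log2 fold change was 0.02, against 0.44 ± 0.29 with it (adjusted p = 0.943). Hdac10 stood at 0.39 ± 0.41, and the other 7 members were between -0.17 and 0.03. Among the class I genes the 95% interval of the log2 fold change, by a normal approximation, was -0.40 to 0.37 for Hdac2, -0.32 to 0.38 for Hdac3, -0.81 to 0.47 for Hdac1 and -0.84 to 0.52 for Hdac8. With 3 libraries per group such intervals are too narrow. The median over the 10 members was -0.05, and 0.00 over all genes. The phenotype difference was not shown to depend on region: 0 members and 0% of 15025 genes passed the test of the interaction (225 at an unadjusted p under 0.05; 0 and 287 with DESeq2), and for Hdac4 the OFC difference minus the mPFC difference was -0.29 ± 0.35.

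**Figure D4:**
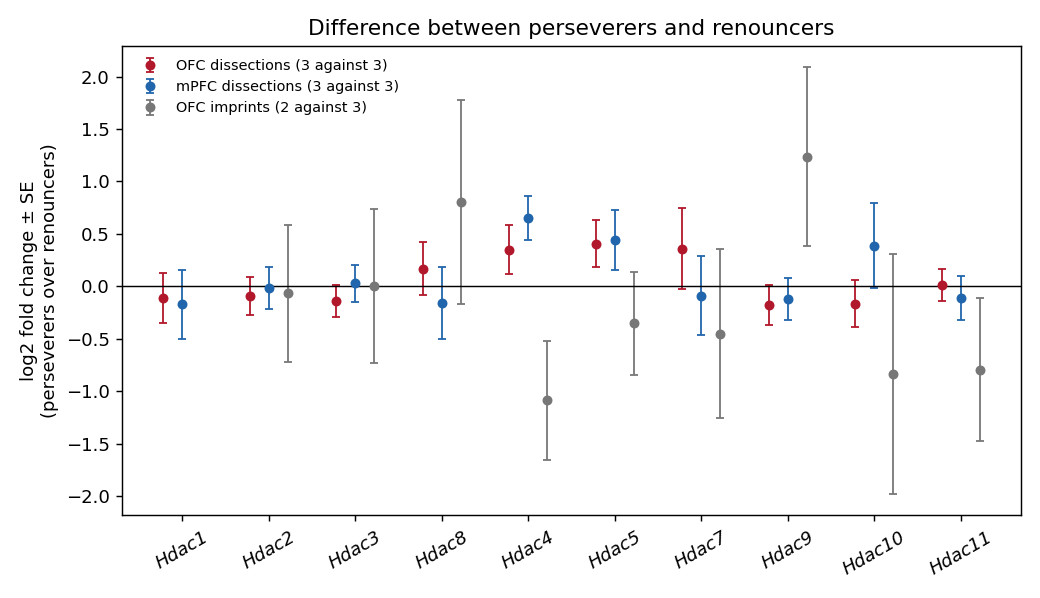
Log2 fold change of perseverers over renouncers with its SE, derived from edgeR's test statistic, for the 10 members in OFC dissections and mPFC dissections (3 against 3 each) and for 9 members in OFC imprints (2 against 3). Hdac4 and Hdac5 are above 0 in both dissections and below 0 in the imprints, and 0 members passed after adjustment.

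Before oDASS, in the OFC imprints, counts were low and 9 of the 10 genes could be tested, since Hdac1 was left out with 4 to 9 counts in 4 of 5 libraries. Of the 9, 0 passed, and of 10530 genes 0% passed (181 at an unadjusted p under 0.05; 0 and 237 with DESeq2). Hdac4 had 46.1 and 41.8 CPM in perseverers, against 114.5, 57.8 and 100.004 CPM in renouncers. On this TMM scale the groups do not overlap, with perseverers lower. The log2 fold change was -1.09 ± 0.57 (unadjusted p 0.0824, adjusted p = 0.9999), or -0.82 without renouncer replicate 1. Hdac11 was likewise lower in both perseverers (36.9 and 15.7 CPM against 51.3, 37.6 and 47.5 CPM), and Hdac8 higher (23.6 and 26.1 CPM against 22.5, 2.89 and 13.1 CPM, where 2.89 CPM is 1 read). On the TMM scale groups did not overlap for these 3 of 9 members and for 16.3% of all genes. Per count outside haemoglobin the groups of all 3 members overlap. For Hdac4, perseverer replicate 1 had 45 reads among 1306627 such counts, a higher rate than renouncer replicate 2 with 20 among 995960. The median log2 fold change was -0.35 over the 9 members and -0.03 over all genes tested. Excitatory neuron markers summed to 1287 to 1767 CPM in perseverer imprints and 1931 to 2865 CPM in renouncer imprints, and lymphocyte markers to 1159 to 1510 CPM and 142 to 971.5 CPM; their part in these differences was not tested.

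The sign of Hdac4 thus differed between stages, with perseverers above renouncers in the dissections after oDASS and below them in the imprints before it. The test of that difference gave 1.41 ± 0.52 on the log2 scale (unadjusted p 0.0164, adjusted p = 0.508), and for Hdac9, which went the other way, -1.29 ± 0.71 (adjusted p = 0.615). Of the members 0 passed, as did 0% of 15229 genes with edgeR (1336 at an unadjusted p under 0.05) and 80 with DESeq2 (1626). Stage and the way of sampling coincide here and cannot be told apart.

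Between regions, the 6 OFC and the 6 mPFC dissections were compared with the phenotype in the model. Hdac9, a class IIa protein whose gene is by far the longest of the family in the genome (34047580 to 34917095 on chromosome 12, 869516 bases, GRCm38), was lower in the OFC on average. It had 23.9, 32.9 and 22.1 CPM in OFC perseverers and 32.4, 25.0 and 33.0 CPM in OFC renouncers, against 35.8, 45.9 and 31.7 CPM in mPFC perseverers and 39.3, 48.7 and 35.9 CPM in mPFC renouncers. The lowest 3 values are all OFC libraries and the highest 5 all mPFC libraries, and the ranges overlap between 31.7 and 33.0 CPM. The log2 fold change was -0.49 ± 0.13 (unadjusted p 0.00160), just outside the threshold with edgeR at an adjusted p of 0.0678 and inside it with DESeq2 (adjusted p = 0.0189). It was also inside without perseverer replicate 3 of the mPFC (adjusted p = 0.0443) and with each library's length trend removed (adjusted p = 0.0497), and the adjusted p ranged from 0.0189 to 0.924 over the alternatives without a replicate block.

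Hdac11 was the next by p, at 77.2 ± 7.18 CPM in the OFC and 94.8 ± 16.3 CPM in the mPFC (SD, n = 6 each; log2 fold change -0.30 ± 0.13, adjusted p = 0.277). Of 10 members 0 passed, against 1.76% of 15025 genes, and the ranges of the 2 regions overlapped for all 10, where they did not for 1.89% of genes. Hdac2 and Hdac3 stood at -0.19 ± 0.13 and -0.19 ± 0.10, and Hdac5 at 0.00 ± 0.19, with 415 ± 105.7 CPM in the OFC and 414 ± 147 CPM in the mPFC. Oligodendrocyte markers, among them Mbp and Mog, summed, ran from 4893 to 14689 CPM in the OFC and from 1847 to 6674 CPM in the mPFC; their part in these differences was not tested.

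The largest differences among the 10 genes were between the OFC dissections after oDASS and the OFC imprints before it. With TMM scaling, 5 of 10 members passed edgeR's test, against 33.5% of all 15229 genes, with 3 higher in the dissections (17.9% of genes were) and 2 lower (15.6%). The median log2 fold change was 0.08 over the 10 members and 0.16 over all genes. The higher genes were Hdac11, Hdac2 and Hdac5 and the lower ones Hdac7 and Hdac10. Hdac7, a class IIa member with well known roles in endothelial cells and developing lymphocytes, had 4.92, 3.505 and 8.79 CPM in perseverer dissections and 5.999, 4.66 and 2.84 CPM in renouncer dissections, against 14.3 and 26.1 CPM in perseverer imprints and 31.6, 17.3 and 29.5 CPM in renouncer imprints. Every imprint was above every dissection, and the log2 fold change was -2.26 ± 0.42 (adjusted p = 6.33e-04). The 4 imprints other than renouncer replicate 1 held only 6 to 18 reads of Hdac7 each.

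Hdac11 had 69.9, 77.7 and 83.4 CPM in perseverer dissections and 76.3, 68.8 and 87.0 CPM in renouncer dissections, against 36.9 and 15.7 CPM in perseverer imprints and 51.3, 37.6 and 47.5 CPM in renouncer imprints. All dissections were above all imprints, with a log2 fold change of 1.02 ± 0.26 (adjusted p = 0.00703). Hdac5 was also separated, at 415 ± 105.7 CPM in the dissections and 242 ± 56.4 CPM in the imprints (n = 6 and 5; 0.75 ± 0.24, adjusted p = 0.0250). Hdac2 averaged 86.7 ± 15.2 CPM in the dissections and 48.3 ± 18.3 CPM in the imprints (0.80 ± 0.27, adjusted p = 0.0316), with overlap. Hdac10 averaged 8.003 ± 1.17 CPM in the dissections and 23.3 ± 16.4 CPM in the imprints (-1.48 ± 0.51, adjusted p = 0.0329), where perseverer imprint replicate 2 has 0 counts, which allows up to 7.83 CPM.

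Hdac1 was the fourth gene whose groups did not overlap on the TMM scale, at 5.71 ± 0.467 CPM in the dissections and 9.98 ± 1.30 CPM in the imprints. Its log2 fold change was -0.79 ± 0.38 (adjusted p = 0.118 with edgeR, 0.00373 with DESeq2 and up to 0.872 over the alternatives). Per count outside haemoglobin its groups overlap. Perseverer imprint replicate 2 had 4 reads among 980536 such counts, a lower rate than perseverer dissection replicate 2 with 90 among 18309967. With TMM scaling, ranges were separate for these 4 of 10 members and for 24.3% of genes. Hdac3, Hdac4, Hdac8 and Hdac9 did not pass, with Hdac4 at -0.02 ± 0.31. The calls of Hdac7 and Hdac11 were kept in every alternative run, with adjusted p up to 0.0282 and 0.0296. Hdac2 lost its call without renouncer imprint replicate 1 (0.65, adjusted p = 0.0813) and with the GC trend removed (0.68, adjusted p = 0.0607). The calls of Hdac2, Hdac5 and Hdac10 each ended when one of several libraries was left out (for 7, 4 and 8 of the 11 libraries), with adjusted p up to 0.0813, 0.0656 and 0.166.

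The scaling matters for this comparison. With library totals outside haemoglobin in place of TMM, the median log2 fold change of all genes was 0.80 and not 0.16, and 4827 genes were called higher and 1466 lower, where TMM gave 2732 and 2374. On that scale Hdac7 was at -1.55, Hdac11 at 1.67, Hdac5 at 1.51 and Hdac2 at 1.46, all still called. Hdac10 lost its call (-0.76), Hdac3 gained one (1.24) and Hdac4 turned to 0.65. Relative to the median of all genes, Hdac11, Hdac5 and Hdac2 were higher and Hdac7 and Hdac10 lower on both scales.

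**Figure D5:**
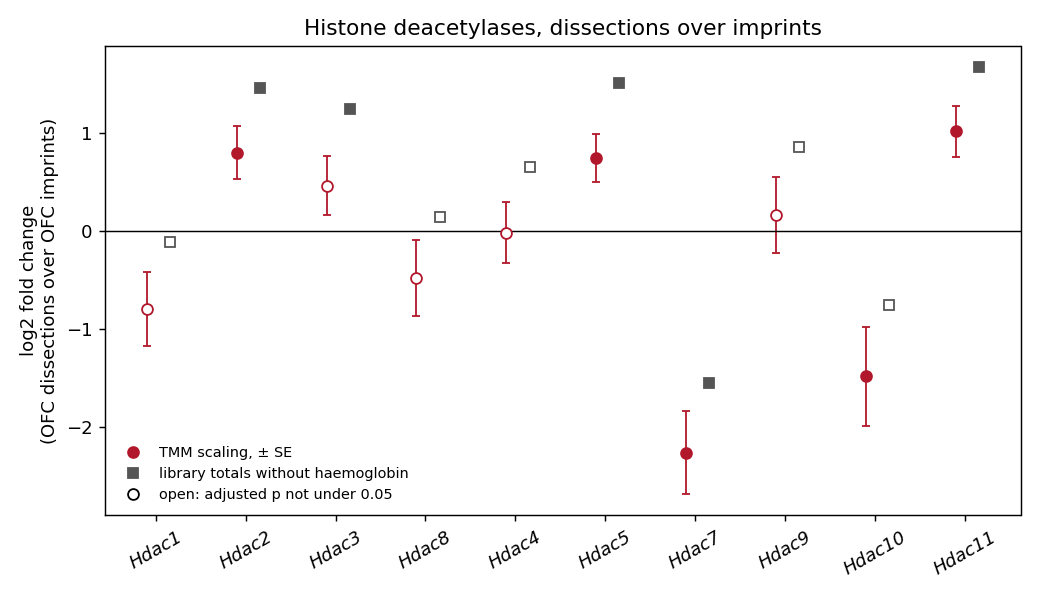
Log2 fold change of OFC dissections over OFC imprints for the 10 members, with TMM scaling (circles, ± SE) and with library totals without haemoglobin (squares); filled symbols passed at an adjusted p of 0.05. Hdac7 is lowest (-2.26 and -1.55) and Hdac11 highest (1.02 and 1.67) on both scales.

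Several lists of cell type markers moved with the same comparison. Excitatory neuron markers summed to 3072 to 4714 CPM in the OFC dissections and 1287 to 2865 CPM in the imprints, and 4 of 4 passed as higher in the dissections, as did 4 of 5 inhibitory neuron and 4 of 5 astrocyte markers. Microglia markers (Cx3cr1, P2ry12, Tmem119, Csf1r) summed to 279 to 445 CPM in the dissections and 578 to 1141 CPM in the imprints, and all 4 passed as lower. White cell and platelet markers were near 0 in the dissections and high in the imprints: lymphocyte markers (with Cd3e, Cd3d and Cd79a each at 0 in at least 1 OFC dissection) summed to 1.22 to 3.45 CPM against 142 to 1510 CPM, platelet markers to 4.39 to 5.996 CPM against 1700 to 6984 CPM, and neutrophil markers to 0.633 to 2.26 CPM against 544 to 6072 CPM. Red cell markers summed to 254 to 766 CPM in the OFC dissections and to 446410.5 to 28449002 CPM on the TMM scale of the imprints. All 7 passed as lower in the dissections. Other lists moved less: of 5 endothelial markers 0 passed as higher and 1 as lower (median log2 fold change -0.11). Of these, Cldn5, Kdr and Tek were at 0 in at least 1 imprint. Of 5 oligodendrocyte markers 1 passed as higher and 1 as lower (median 0.39). The part of these cells in the differences of Hdac7, Hdac10 and the others was not tested, and in bulk RNA fewer cells of a type and less RNA per cell cannot be told apart.

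The partners of the family were looked at in 7 lists of 69 genes. Between perseverers and renouncers 0 partners passed in any of the 3 comparisons. In the mPFC the smallest p values were those of Kat8, an acetyltransferase of histone H4 (-0.68 ± 0.20, unadjusted p 0.00575), and Mta1, a NuRD subunit (1.15 ± 0.34, unadjusted p 0.00667), both with an adjusted p of 0.943. Mef2d, a partner of class IIa proteins, stood at 0.41 ± 0.15 in the mPFC and 0.31 ± 0.15 in the OFC. Sik1, a kinase that phosphorylates class IIa proteins, was at 0.47 ± 0.18 in the OFC (unadjusted p 0.0233).

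Between regions 2 of 69 partners passed, both higher in the OFC, which is near the 1.76% of all genes. Camk4, a calcium-dependent kinase of class IIa proteins, had a log2 fold change of 0.55 ± 0.10 (adjusted p = 0.00849), and the acetyltransferase gene Kat2b one of 0.80 ± 0.19 (adjusted p = 0.0495). Mef2c, a neuronal Mef2 factor, was at -0.46 ± 0.16 (adjusted p = 0.173).

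Between dissections and imprints, where 17.9% of all genes were called higher and 15.6% lower, partners were called in both directions. Of 26 genes of the class I corepressor complexes 8 passed as lower in the dissections and 0 as higher, with a median of -0.42 against 0.16 over all genes; Gps2, a subunit of the NCoR complex, was at -2.79 ± 0.30 (adjusted p = 2.72e-06) and Mta3, a NuRD subunit, at -2.73 ± 0.42. Of the 6 14-3-3 genes 4 passed as higher and 0 as lower (median 0.75), among them Ywhag at 1.15 ± 0.20. Class IIa kinases had 3 higher and 1 lower, with Camk1 at 1.26 ± 0.20 and Prkd2 at -4.04 ± 0.42. Of 3 Mef2 factors tested Mef2a passed as higher (1.08 ± 0.27). The bromodomain reader Brd3 passed as lower (-0.77 ± 0.26), as did 2 of 13 acetyltransferases and coactivators, Crebbp (-1.17 ± 0.22) and Kat6a, and 2 of 7 sirtuins, Sirt2 and Sirt7. The count for the acetyltransferases is near the share of all genes called lower.

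The genes whose levels were most like each member over the 12 dissections, by Pearson correlation of region-centred log2 CPM among 8542 or 8543 genes, differed between members. For Hdac5 they were Fgf1, Rnf10 and Rasl10b (0.99 each), and for Hdac4 they included Rnf165 (0.97) and 1700003E16Rik (0.96). For Hdac2 they were G3bp2, Rtn1 (0.99 each) and Rab6a (0.98), and for Hdac9 Lrrc4c (0.95), Cdh8 (0.94) and Kcnv1 (0.93). Hdac3 was most like Impa1 (0.94), Hdac8 most like Naaa (0.95), Hdac10 most like Kctd2 (0.96), Hdac11 most like Alg14 (0.93), Hdac7 most like Acot11 (0.92) and Hdac1 most like Lims1 (0.88). All share libraries and depth with the member, and the values carry no test.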

How the data were processed

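Total RNA of brain tissue was made into SMART-Seq v4 and Nextera libraries, which do not mark strand, per the labels' protocols. The authors deposited raw read counts per gene in 3 tables with a gene length column, in bases. The build mm10 and FastQC 0.11.8 are named in the submitters' processing notes, and which aligner, counting tool and annotation were used is not given in the sources used here. From the deposited counts, each comparison was fitted across all genes with edgeR 4.0.16 in R 4.3.3 (filterByExpr, TMM factors, robust quasi-likelihood test, Benjamini-Hochberg threshold of 0.05), with the groups compared in the fit. Region was fitted with phenotype, and stage with phenotype, and interactions in the same samples. The SE of a log2 fold change is its absolute value divided by the square root of the test's F statistic. The alternatives were DESeq2 1.42.0, no low-count filter, removal of the 6 haemoglobin genes, removal of each library's trend with gene length, 1 fit of all 17 libraries, a replicate block, and leaving out each library. Library totals without haemoglobin and removal of each library's GC trend were added after the data had been seen. Levels are CPM with TMM factors of all 17 libraries, rescaled to a mean factor of 1 in the dissections; log2 levels in correlations used a pseudocount of 1 CPM. Totals of 8960549 to 20945108 counts limit the precision, and most of the imprints' counts are haemoglobin. GC content is that of the longest transcript, known for 96.5% of genes. The members and lists were chosen with earlier results of these data known. All 10 members are described, with up to 2 partners of smallest p per list and comparison and the 3 genes most correlated with each member; some genes of these lists are not reported here. The fits were tested on simulated data.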

Additional observations from a re-analysis of the deposited data

Results flagged for a closer look

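Perseverer imprint replicate 2 was far from the other 4 OFC imprints in 2 genes, out of 30 checks of 1 library against its group, of which chance flags about 1 in 20. For Hdac10 it had 0 CPM, where the nearest library had 12.9 CPM, and a count of 0 allows up to 7.83 CPM there. For Hdac11 it had 15.7 CPM, where the nearest had 36.9 CPM. Both libraries of the perseverer imprints entered the comparisons as they are.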

How the results depend on the processing

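Of the members' fold changes under the alternatives, 701 kept their direction and side of the threshold, 55 changed sign, 23 lost and 8 gained a call; the cause was not tested. In the imprints (perseverers over renouncers) Hdac3 was at -0.0285 without length trend, -0.0818 in the fit of all 17 libraries, -0.45 with library totals and -0.0633 without GC trend, and Hdac2 at 0.0358 in the fit of all 17. In the OFC Hdac11 was at -0.0073 in the fit of all 17, -0.0148 with library totals and -0.0702 without GC trend. In the mPFC Hdac2 was at 0.0646 without length trend and 0.0647 without GC trend, and Hdac3 at -0.0195 with library totals. Between regions Hdac5 was at -0.0135 with library totals. Between dissections and imprints Hdac4 was at 0.0503 without the low-count filter, 0.12 in the fit of all 17, 0.65 with library totals and 0.013 without GC trend, Hdac9 at -0.26 without length trend and Hdac8 at 0.14 with library totals. Leaving out 1 library gave, in the imprints, -1.09 to 0.55 for Hdac2, -1.18 to 0.72 for Hdac3, -0.80 to 0.0349 for Hdac5 and -8.78 to 0.10 for Hdac10. In the OFC it gave -0.25 to 0.0592 for Hdac2, -0.11 to 0.63 for Hdac7 and -0.0736 to 0.0879 for Hdac11. In the mPFC it gave -0.17 to 0.15 for Hdac2, -0.069 to 0.14 for Hdac3, -0.55 to 0.0831 for Hdac8, -0.32 to 0.13 for Hdac7, -0.26 to 0.0111 for Hdac9, -0.37 to 0.0165 for Hdac11 and -0.43 to 0.0147 for the sirtuin gene Sirt3. Between regions it gave -0.0974 to 0.0216 for Hdac1, -0.20 to 0.0391 for Hdac4, -0.10 to 0.19 for Hdac5 and -0.15 to 0.22 for Hdac7, and between stages -0.19 to 0.16 for Hdac4 and -0.0673 to 0.53 for Hdac9. Genes called between phenotypes in imprints were 63 in the fit of all 17 libraries, against 0. Genes called between regions were 698 with DESeq2, 21 in the fit of all 17 and 120 to 448 with 1 library left out, against 264, and Hdac9 was the 1 member called with DESeq2 and without length trend, with 0 to 1 members over the left-out libraries. Stage comparisons called 3 to 5 members with 1 library left out. The stage interaction called 80 genes with DESeq2, 6 in the fit of all 17 and 0 to 4 with 1 library left out, against 0. Replicate numbers are shared between groups, but the labels do not say that they mark shared mice, and not every pair of same-numbered libraries deviated together: correlations were -0.51 to 0.20 between phenotypes in the OFC, and between OFC and mPFC 0.23, 0.73 and 0.74 in perseverers, each the best match of its library, and 0.25, -0.11 and 0.44 in renouncers. With the replicate block, 1130 genes and 1 member, Hdac9 (adjusted p = 0.0132), were called between regions, 3 members between stages (Hdac5 at an adjusted p of 0.0629 and Hdac10 at 0.208 were not), and Hdac3 in the imprints was at -0.54. Counts of 0 to 29 reads for Hdac1, Hdac8 and Hdac10 in 4 of 5 imprints limit the comparisons that use them. The same limit applies to Hdac7 (6 to 18 reads in those imprints), Hdac9 (4 to 25) and Hdac11 (6 to 36). Hdac2, Hdac3 and Hdac4 had 9 to 69, 21 to 36 and 16 to 61 reads there.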
